A study of Drosophila melanogaster with 12 samples.

Results

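The 7 opsin genes of the fruit fly Drosophila melanogaster were followed in RNA from single heads: ninaE (also called Rh1), Rh2, Rh3, Rh4, Rh5, Rh6 and Rh7. They were chosen by FlyBase symbol, and each matched 1 of the 17895 gene rows in a table of 24278 features. The table holds 12 libraries in 4 groups of 3, from virgin females aged 21 days. One genotype was labelled a knockout (KO) of SIRT6, a NAD-dependent deacylase. The other was w1118, a laboratory strain that lacks eye pigment through a white mutation. From eclosion to the day of freezing, either 680C91 at 100 µM, which blocks the tryptophan-degrading enzyme TDO2, or the solvent dimethyl sulfoxide (DMSO) was mixed into the yeast of the food. The groups, named by their labels, were thus KO-labelled with DMSO, KO-labelled with inhibitor, w1118 with DMSO and w1118 with inhibitor, and all flies shared 25 °C and 12 h of light a day. The series asks how SIRT6 bears on tryptophan breakdown in the head. How the knockout was made and which background it carries are not given in the sources used here. An effect of the knockout and a difference between the strains thus cannot be told apart.

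An opsin is a receptor that carries a light-absorbing chromophore derived from carotenoids. Light turns it into an active form that switches on a G protein and phospholipase C in the rhabdomere, the folded membrane of a photoreceptor, and the TRP and TRPL channels then open. A compound eye unit has outer photoreceptors R1 to R6, all with ninaE, and inner photoreceptors R7 and R8. R7 cells make Rh3 or Rh4, which absorb ultraviolet light, and the R8 cell below them makes Rh5 (blue) when paired with an Rh3 cell and Rh6 (green) when paired with an Rh4 cell. Rh2 is the opsin of the ocelli, the simple eyes on top of the head, and Rh7 is known from clock neurons of the brain. A head library pools all of these cells, so fewer cells of a type and less RNA per cell cannot be told apart.

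The libraries held 24633705 to 44545859 estimated counts, and opsins took 0.926% to 2.72% of the gene counts. Sirt6 was not lower in the KO-labelled libraries: it had 70, 78 and 88 counts there with DMSO and 90, 84 and 84 with inhibitor, against 68, 147 and 102 in w1118 with DMSO and 47, 56 and 63 with inhibitor. Its averaged log2 difference of labelled KO against w1118 was -0.01 ± 0.13 (SE). That average joined -0.33 ± 0.18 with DMSO and 0.31 ± 0.18 with inhibitor, neither called by edgeR. The transcript thus did not check the genotype labels, and which part of the gene was altered is not given in the sources used here. The w1118 libraries numbered 2 stood apart from the rest. Yolk protein genes of the fat body (Yp1 to Yp3) took 0.429% of gene counts in the one with DMSO and 1.93% in the one with inhibitor, against 18.6% to 21.8% in the other w1118 libraries and 9.98% to 13.7% in those labelled KO. All 7 opsins had their highest level in w1118 with DMSO replicate 2, and the share of all genes highest there was not counted. Results that rest on these libraries are given with and without them.

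All 7 opsins passed the filter on low counts. In BDGP 6.54, ninaE lies on 3R from 19886255 to 19888206 (minus strand, 5 exons), Rh2 on 3R from 18899423 to 18901019 (plus strand, 4 exons), Rh3 on 3R from 20081060 to 20082450 (minus strand, 1 exon) and Rh6 on 3R from 15483158 to 15484699 (plus strand, 3 exons). Rh4 lies on 3L from 16852527 to 16862517 (minus strand, 2 exons), Rh7 on 3L from 12164205 to 12175482 (minus strand, 4 exons) and Rh5 on 2L from 12008153 to 12009832 (plus strand, 3 exons). Rh4 spans CG13029, sina and sinah on the opposite strand, but none of their exons overlaps an Rh4 exon, and the other 6 spans hold no other gene.

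Levels were compared between genes as CPM (each count divided by the scaled size of its library) per kilobase of exon. Over the 12 libraries ninaE averaged 7563 ± 1712 (SD, n = 12), Rh4 727 ± 136, Rh3 508 ± 93.2, Rh6 224 ± 33.5, Rh5 149 ± 39.1, Rh2 53.0 ± 27.7 and Rh7 4.10 ± 0.896 CPM per kilobase. ninaE held 76.3% to 86.4% of this opsin RNA in every library. In each of the 12 libraries Rh4 exceeded Rh3 and Rh6 exceeded Rh5. The 4 inner photoreceptor opsins summed to 20.2% ± 5.89 of ninaE in the KO-labelled libraries and 23.7% ± 2.51 in w1118 (SD, n = 6 each), 2 ranges that overlapped.

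**Figure D1:**
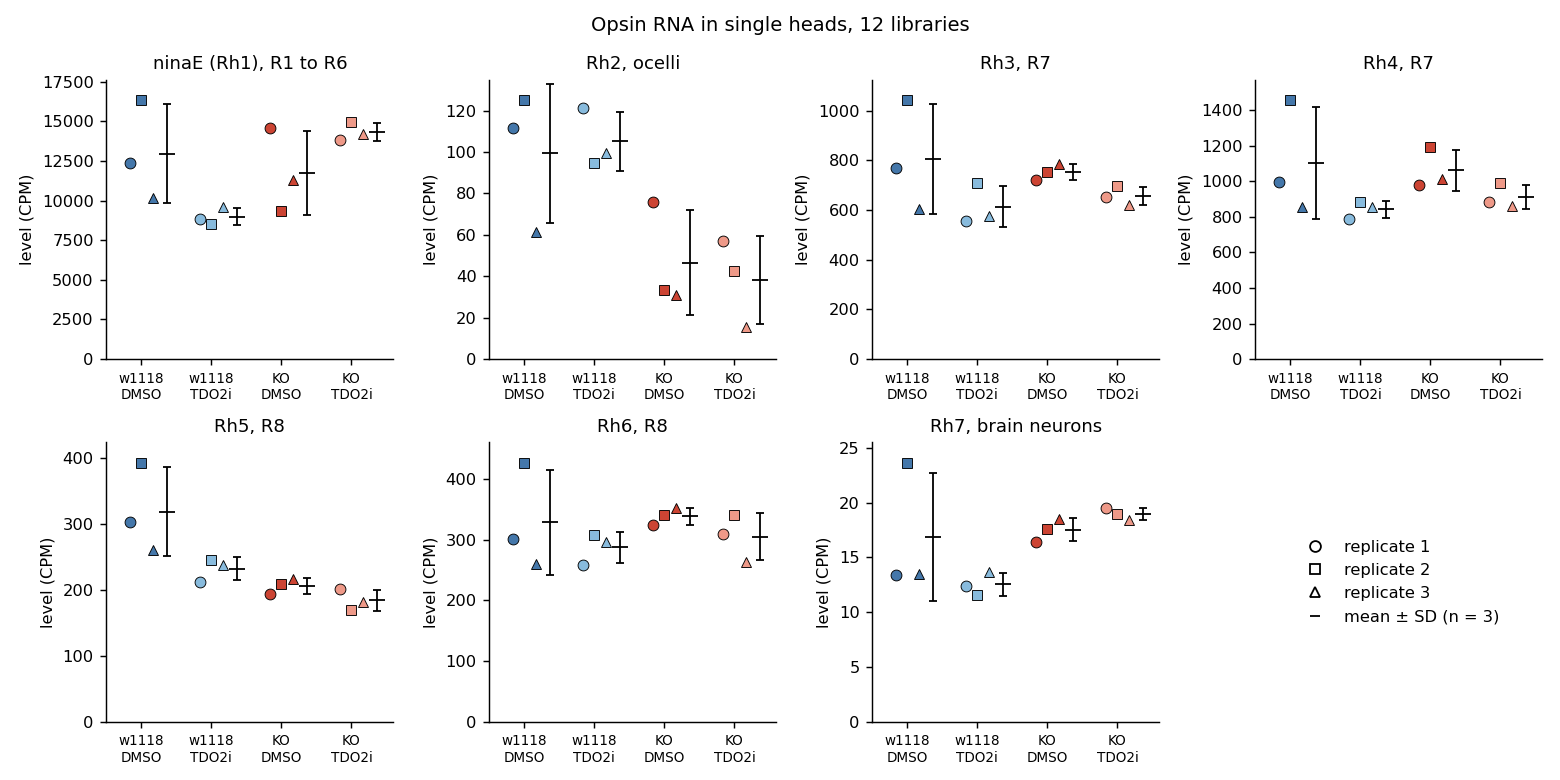
Level of each opsin in CPM (vertical axes, from 0) in each of the 12 libraries, by group; the bar beside each group is the mean ± SD of its 3 libraries, TDO2i stands for the inhibitor and KO for the KO-labelled libraries. The square of w1118 with DMSO is the highest library in every panel, and in the Rh5 panel every KO-labelled point lies below every w1118 point of the same treatment.

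Labelled KO against w1118, averaged over the 2 treatments, the blue opsin of R8 (Rh5) and the ocellar opsin (Rh2) were lower and the other 5 opsins did not pass the test. edgeR's quasi-likelihood test called 2 of the 7 at an adjusted p under 0.05, beside 11.1% of the 14155 genes tested. Both were called lower, as were 5.78% of all genes. The median log2 fold change was 0.03 over the opsins and -0.07 over all genes.

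Rh5, the blue opsin of R8, was at 193, 209 and 216 CPM in the KO-labelled libraries with DMSO and at 201, 170 and 181 CPM with inhibitor. In w1118 it was at 303, 392 and 260 CPM with DMSO and at 212, 246 and 237 CPM with inhibitor. With either treatment every KO-labelled library lay below every w1118 library, although the highest KO-labelled library with DMSO passed the lowest w1118 library with inhibitor. The averaged log2 fold change was -0.48 ± 0.11 (SE), with an adjusted p of 0.0190 by edgeR's quasi-likelihood test. It was -0.31 (adjusted p 0.0163) without w1118 with DMSO replicate 2, and -0.29 (adjusted p 0.0208) without both w1118 libraries numbered 2. The call was lost in 7 of the 12 fits that left out 1 library, in which the log2 fold change lay between -0.46 and -0.38. In those, edgeR's adjusted p was 0.0799, 0.0731 and 0.0667 without replicates 1, 2 and 3 of KO-labelled with DMSO, 0.0592 and 0.0757 without replicates 2 and 3 of KO-labelled with inhibitor, and 0.0700 and 0.0635 without replicates 2 and 3 of w1118 with inhibitor.

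With DMSO alone, Rh5 was the 1 opsin of 7 that edgeR called, beside 4.1% of all genes. Its log2 fold change was -0.63 ± 0.15 (SE), and its adjusted p of 0.04996 lay just inside the threshold. That call was lost in 11 of the 12 fits without 1 library, the exception being w1118 with DMSO replicate 3 (adjusted p 0.0403), and the lost values ran up to 0.212. The value itself was -0.36 without w1118 with DMSO replicate 2. With inhibitor the log2 fold change of Rh5 was -0.33 ± 0.15 (SE), with an adjusted p of 0.275 by edgeR.

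Rh2, the ocellar opsin, was at 75.9, 33.3 and 30.8 CPM in the KO-labelled libraries with DMSO and at 56.8, 42.3 and 15.3 CPM with inhibitor. In w1118 it was at 112, 125 and 61.4 CPM with DMSO and at 121, 94.9 and 99.5 CPM with inhibitor. The groups did not overlap with inhibitor, while with DMSO labelled KO replicate 1 lay above w1118 replicate 3. The averaged log2 fold change was -1.28 ± 0.35 (SE), with an adjusted p of 0.0414 by edgeR. Within treatments it was -1.09 ± 0.49 (adjusted p 0.270) with DMSO and -1.46 ± 0.49 (adjusted p 0.140) with inhibitor by the same test. The averaged value ran from -1.51 to -1.05 over the fits without 1 library, and the call was lost in 9 of these 12, in which the value lay between -1.32 and -1.05. edgeR's adjusted p was then 0.116 and 0.12 without replicates 2 and 3 of KO-labelled with DMSO, 0.0858 and 0.0652 without replicates 2 and 3 of KO-labelled with inhibitor, 0.0983 and 0.0615 without replicates 1 and 2 of w1118 with DMSO, and 0.0907, 0.0671 and 0.0824 without replicates 1, 2 and 3 of w1118 with inhibitor. The call was also lost without both w1118 libraries numbered 2 (0.0637), with median-of-ratios scaling (0.0503) and with no count filter (0.0508).

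ninaE, the opsin of R1 to R6 and the most abundant, was at 14588, 9345 and 11323 CPM in the KO-labelled libraries with DMSO and at 13850, 14946 and 14207 CPM with inhibitor. In w1118 it was at 12402, 16330 and 10165 CPM with DMSO and at 8844, 8518 and 9603 CPM with inhibitor. The groups with DMSO overlapped, and with inhibitor all 3 KO-labelled libraries lay above all 3 of w1118. The averaged log2 fold change was 0.27 ± 0.20 (SE, adjusted p 0.432 by edgeR's quasi-likelihood test). It was 0.44 (adjusted p 0.0673) without w1118 with DMSO replicate 2 and 0.42 (adjusted p 0.0518) without both w1118 libraries numbered 2. With inhibitor it was 0.67 ± 0.29 (SE) with an adjusted p of 0.242 by edgeR. This comparison passed with DESeq2 (0.0191) and with limma voom with sample weights (0.0307). Those fits called 1077 and 1335 of all genes with inhibitor, beside 482 by edgeR.

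The opsins of R7 and the green opsin of R8 did not pass the test between the genotypes. Rh3 ranged from 620 to 785 CPM in the KO-labelled libraries and from 556 to 1041 CPM in w1118. Rh4 ranged from 864 to 1192 CPM and from 788 to 1456 CPM in the same order, and Rh6 from 264 to 352 CPM and from 259 to 426 CPM. All 3 ranges overlapped. The averaged log2 fold changes were 0.00 (95% interval -0.30 to 0.31) for Rh3, 0.03 (-0.28 to 0.34) for Rh4 and 0.06 (-0.22 to 0.35) for Rh6, with edgeR's adjusted p at 0.793 or above. Without both w1118 libraries numbered 2 they were 0.25, 0.25 and 0.28. Rh3 (adjusted p 0.0494 by edgeR) and Rh6 (0.0456) then passed as higher in the KO-labelled libraries. That fit called 4161 of all genes, beside 1572 with all libraries. The sign for Rh3 was negative in 2 of the fits without 1 library, at -0.02 without KO-labelled with inhibitor replicate 2 and -0.04 without w1118 with DMSO replicate 3.

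Rh7, the opsin of brain neurons, was at 16.4, 17.6 and 18.5 CPM in the KO-labelled libraries with DMSO and at 19.5, 18.9 and 18.4 CPM with inhibitor. In w1118 it was at 13.4, 23.6 and 13.5 CPM with DMSO and at 12.4, 11.5 and 13.7 CPM with inhibitor. All w1118 libraries except DMSO replicate 2 lay below the 6 KO-labelled ones, and that library lay above them. The averaged log2 fold change was 0.33 ± 0.14 (SE, adjusted p 0.166 by edgeR). Without that library it was 0.56 ± 0.06 (SE) and passed edgeR's test with an adjusted p of 0.000481, and without both w1118 libraries numbered 2 it was 0.54 (0.000526). With limma voom, whose sample weights count uneven libraries less, it was 0.47 and passed (0.00141). In that order these fits called 3246, 4161 and 3975 of all genes, beside 1572 by edgeR with all libraries.

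With inhibitor, 0 of the 7 opsins were called between the genotypes by edgeR, beside 3.41% of all genes. Of the 7, 3 had an unadjusted p under 0.05, as did 18.6% of all genes. DESeq2 called 1 of the 7 and 1077 of all genes, and voom 2 and 1335, beside 482 genes by edgeR. The groups did not overlap for 4 of the 7, beside 27.7% of all genes, with ninaE and Rh7 higher and Rh2 and Rh5 lower in the KO-labelled libraries. With DMSO the groups did not overlap for 1 of the 7, beside 24.1% of all genes. Rh7 had a log2 fold change of 0.60 with inhibitor (adjusted p 0.135 by edgeR) and 0.06 with DMSO (0.930). Without w1118 with DMSO replicate 2 these were 0.66 (0.00209) and 0.47 (0.0170). That fit called 1351 of all genes with inhibitor and 1629 with DMSO, beside 482 and 581 with all libraries.

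**Figure D2:**
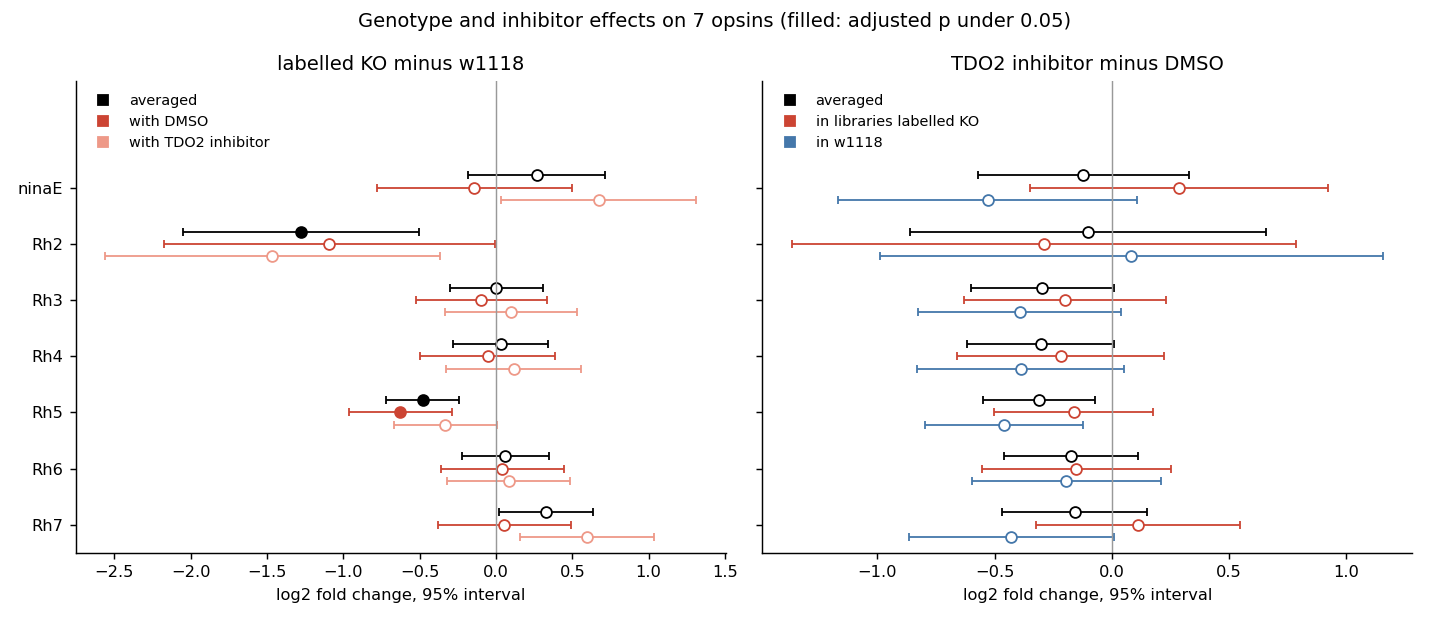
Log2 fold change of each opsin (points) with its 95% interval from edgeR's quasi-likelihood test, for labelled KO against w1118 (left) and inhibitor against DMSO (right); filled points have an adjusted p under 0.05. Filled points appear for Rh2 and Rh5 averaged over treatments (-1.28 and -0.48) and for Rh5 with DMSO (-0.63), and none appears on the right.

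The inhibitor changed no opsin past the threshold. Averaged over the 2 genotypes, edgeR called 0 of the 7, beside 0.00706% of all genes, which is 1 gene. All 7 opsins had negative log2 fold changes, from -0.10 for Rh2 to -0.31 for Rh5. Their median was -0.17, against -0.01 over all genes. Within genotypes, 2 of the 7 were positive in the KO-labelled libraries and 1 in w1118. All 7 had their highest level in w1118 with DMSO replicate 2, a library without inhibitor, and its part in these signs was not tested. In the fits without 1 library, the averaged values of Rh3, Rh4, Rh5 and Rh6 stayed negative, at most -0.17, -0.17, -0.21 and -0.05. By edgeR 1 opsin (Rh5, p 0.0159, adjusted p 0.892) had an unadjusted p under 0.05, as did 5.31% of all genes. DESeq2 and voom called 0 opsins. The 95% interval was -0.55 to -0.07 for Rh5 and -0.57 to 0.33 for ninaE. The signs of ninaE, Rh2 and Rh7 turned when libraries were left out or weighted.

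Within genotypes the inhibitor left 0 of 7 opsins called by edgeR, beside 0.00706% of genes in the KO-labelled libraries and 0% in w1118. Opsins with an unadjusted p under 0.05 numbered 0 and 1 in that order, beside 3.69% and 7.39% of all genes, and DESeq2 and voom called 0 in both. ninaE had a log2 fold change of 0.29 ± 0.29 (SE, adjusted p 1) in the KO-labelled libraries and -0.53 ± 0.29 (SE, adjusted p 0.724) in w1118 by edgeR. The interaction, which tests the difference between these 2 effects, was 0.82 ± 0.40 (SE, p 0.0715, adjusted p 0.972), and edgeR, DESeq2 and voom called 0 of 7 opsins for it, with 0 at an unadjusted p under 0.05, beside 0% and 4.84% of all genes by edgeR. Rh5 had -0.16 in the KO-labelled libraries and -0.46 in w1118 (adjusted p 0.561), where all 3 libraries with inhibitor lay below all 3 with DMSO. Without w1118 with DMSO replicate 2, the values in w1118 were -0.31 (adjusted p 0.739) for ninaE and -0.26 (adjusted p 0.591) for Rh5 by edgeR. Groups did not overlap for 1 of 7 opsins in the KO-labelled libraries (Rh3, lower with inhibitor, -0.20), beside 13% of all genes, and for 2 of 7 in w1118 (ninaE and Rh5, both lower), beside 7.91%.

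In the order of group means, most neighbours overlapped in their ranges. ninaE ran from KO-labelled with inhibitor through w1118 with DMSO and KO-labelled with DMSO down to w1118 with inhibitor, and each neighbour overlapped the next. Over all 7 opsins, 2 neighbouring pairs were apart, Rh3 in the KO-labelled libraries (DMSO above inhibitor) and Rh5 in w1118 (DMSO above inhibitor).

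Ratios between opsins within a library do not depend on how libraries are scaled. For a list of 12 ratios, the genotype and the inhibitor effect were each tested by exact permutation (two-sided, 400 assignments of labels within the other factor), which makes 24 tests, and the smallest p it can give is 0.005. The genotype effect passed for 5 of the 12 ratios after Benjamini-Hochberg adjustment over the 24 tests, each with that smallest p and an adjusted p of 0.024. When medians replaced means, each of the 5 had an adjusted exact permutation p of 0.096. Several assignments give separated groups the same difference of medians, so the smallest p is larger than with means. With 5 ratios at that p the threshold could not be passed, so this alternative says nothing of their stability. The inhibitor effect passed for 0 of the 12, and 0 had an exact permutation p under 0.05. Rh5 is in 3 of the 5 ratios and ninaE in 3, so they are not separate observations. Each of the 5 also holds Rh5, Rh2 or the chaoptin gene chp, which edgeR called between the genotypes in these same libraries. The ratios thus partly restate those calls. They were chosen with earlier results of these data known, and the share of ratios between other genes that pass was not computed.

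The ratio of Rh5 to Rh6, the blue and green opsins of R8, was lower in all 6 KO-labelled libraries than in all 6 of w1118. Per exon length it was 0.534, 0.550 and 0.550 in the KO-labelled libraries with DMSO and 0.584, 0.445 and 0.614 with inhibitor. In w1118 it was 0.903, 0.823 and 0.894 with DMSO and 0.734, 0.715 and 0.715 with inhibitor. The log2 difference was -0.55 (exact permutation p 0.005, adjusted p 0.024), and it was -0.68 with DMSO and -0.41 with inhibitor. As a share, Rh5 was 35.3% ± 2.46 of R8 opsin RNA in the KO-labelled libraries and 44.3% ± 2.70 in w1118 (SD, n = 6 each). Over the 12 tests without 1 library the log2 difference ran from -0.59 to -0.47. Since the groups were already apart, leaving out a library could not end the call, and those tests say nothing of its stability. In w1118 all 3 libraries with inhibitor lay below all 3 with DMSO, while in the KO-labelled libraries they overlapped. The averaged inhibitor effect on this ratio was -0.14 (exact permutation p 0.11, adjusted p 0.377), and the difference between genotypes was not tested.

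The matching ratio of R7, Rh3 to Rh4, did not separate the genotypes. It ran from 0.612 to 0.752 in the KO-labelled libraries and from 0.651 to 0.776 in w1118, which overlapped. The log2 difference was -0.02 (exact permutation p 0.695, adjusted p 0.9), and Rh3 made up 41.0% ± 1.67 and 41.4% ± 1.56 of R7 opsin RNA (SD, n = 6 each). Its sign turned without KO-labelled with DMSO replicate 2 (0.02), without w1118 with inhibitor replicate 2 (0.01) and in other settings. Rh4 to Rh6, the opsins of the paired ultraviolet and green cells, had a log2 difference of -0.03 (exact permutation p 0.63, adjusted p 0.889), which was 0.00 without KO-labelled with DMSO replicate 3. Its inhibitor effect was -0.12 (exact permutation p 0.06, adjusted p 0.24).

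Rh3 to Rh5, the opsins of the paired ultraviolet and blue cells, did separate the genotypes. It was 4.22, 4.08 and 4.11 in the KO-labelled libraries with DMSO and 3.67, 4.62 and 3.87 with inhibitor, against 2.87, 3.00 and 2.63 in w1118 with DMSO and 2.96, 3.26 and 2.74 with inhibitor. Every KO-labelled library lay above every w1118 library. The log2 difference was 0.49 (exact permutation p 0.005, adjusted p 0.024). R7 opsin RNA per R8 opsin RNA was 3.51 ± 0.189 in the KO-labelled libraries and 3.11 ± 0.137 in w1118 (SD, n = 6 each). The ranges, 3.24 to 3.81 and 2.90 to 3.31, overlapped, and this summed measure was not tested.

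Against ninaE, the ratios of Rh5 (log2 difference -0.74) and Rh2 (-1.67) were lower in all 6 KO-labelled libraries than in all 6 of w1118, both with an exact permutation p of 0.005 and an adjusted p of 0.024. Rh3, Rh4 and Rh6 against ninaE had log2 differences of -0.25, -0.22 and -0.19, and Rh7 against ninaE 0.09, with adjusted exact permutation p of 0.555 or above. These are averages over unlike values within treatments. With DMSO, Rh3, Rh4 and Rh6 against ninaE had log2 differences of 0.08, 0.12 and 0.21, and the groups overlapped. With inhibitor they had -0.57, -0.56 and -0.60, and all 3 KO-labelled libraries lay below all 3 of w1118. Rh7 against ninaE was at 0.25 with DMSO and -0.08 with inhibitor, with overlap in both. The difference between treatments was not tested for these ratios. ninaE against chp, the gene of chaoptin, an adhesion protein of photoreceptor membranes, ranged per exon length from 9.47 to 17.0 in the KO-labelled libraries and from 17.8 to 26.3 in w1118. These ranges did not overlap, and the log2 difference was -0.77 (exact permutation p 0.005, adjusted p 0.024). In that ratio chp itself was the gene called, since its own log2 fold change was 1.04 by edgeR while that of ninaE was 0.27. Against trp, the main light-gated channel, ninaE had a log2 difference of -0.14 (exact permutation p 0.375, adjusted p 0.6). It was -0.51 with DMSO, where all 3 KO-labelled libraries lay below all 3 of w1118, and 0.23 with inhibitor, where they overlapped.

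**Figure D3:**
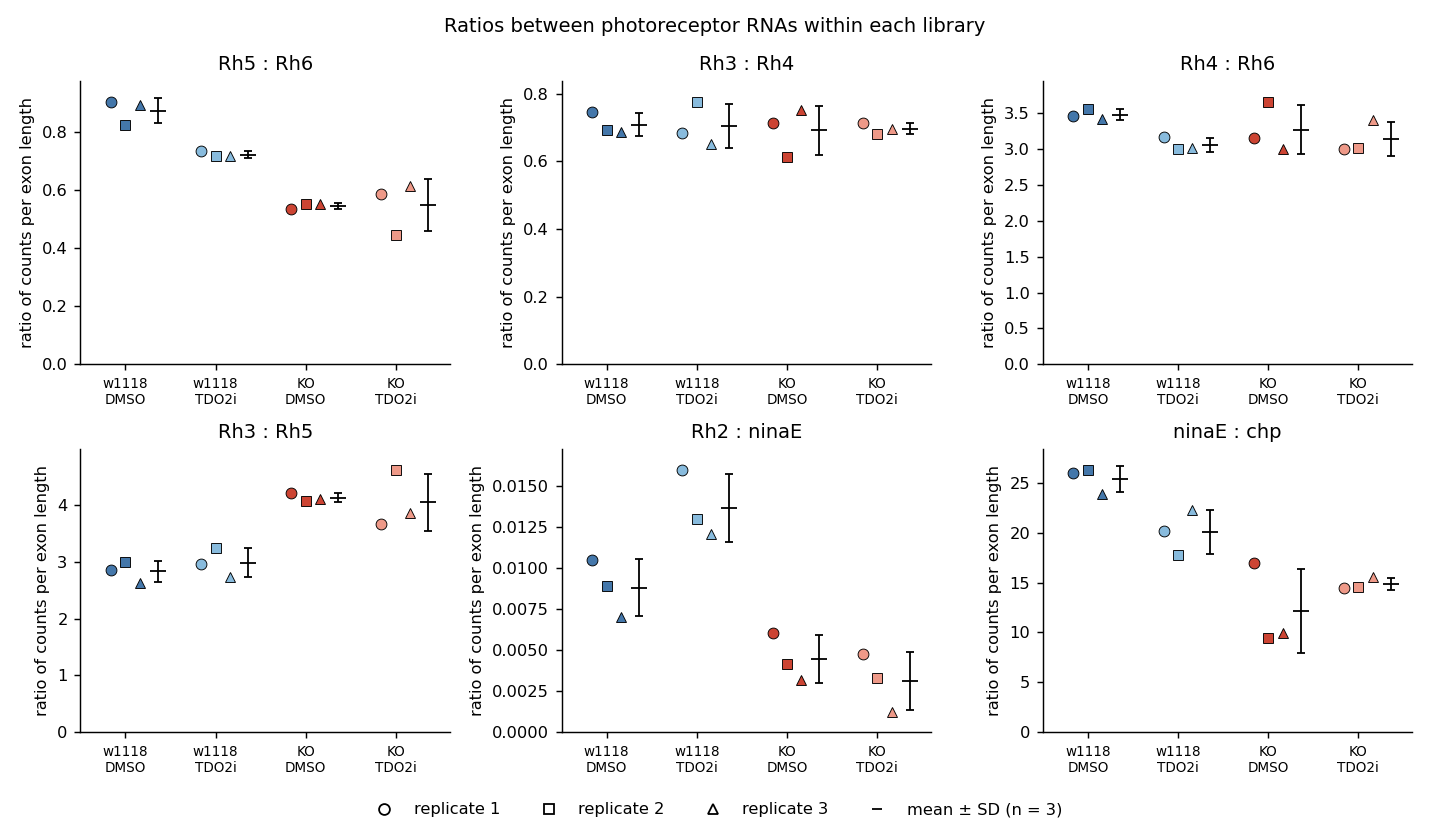
Ratio of counts per exon length (vertical axes, from 0) in each of the 12 libraries for 6 of the 12 ratios; the bar beside each group is the mean ± SD of its 3 libraries, TDO2i stands for the inhibitor and KO for the KO-labelled libraries. The red points (labelled KO) and blue points (w1118) do not overlap for Rh5 to Rh6, Rh3 to Rh5, Rh2 to ninaE and ninaE to chp, and overlap for Rh3 to Rh4 and Rh4 to Rh6.

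The other genes of vision were taken as lists, and genes of several lists were higher in the KO-labelled libraries, averaged over treatments. Every list count below stands beside the same 11.1% of all genes called, 5.33% higher and 5.78% lower. Of 14 genes of light signalling, 4 were called higher, beside 5.33% of all genes, and 0 lower by edgeR, with a median log2 fold change of 0.27 against -0.07 over all genes. They were trpl, the second light-gated channel, at 1.42 ± 0.17 (SE), rdgB, a phosphatidylinositol transfer protein of photoreceptors, at 1.20 ± 0.13, inaC, the eye protein kinase C, at 0.78 ± 0.17, and, named after its value was seen, rdgA, a diacylglycerol kinase, at 0.49 ± 0.13. trpl averaged 5049 and 5176 CPM in the KO-labelled libraries with DMSO and inhibitor, and 2118 and 1719 CPM in w1118. The other 10, norpA (phospholipase C), trp and Galphaq among them, did not pass.

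Of 12 genes of opsin maturation and chromophore supply, 3 were called higher and 1 lower, beside 5.33% and 5.78% of all genes. ninaD, a scavenger receptor for carotenoid uptake, had a log2 fold change of 2.14 ± 0.33 (SE) at no more than 10.2 CPM in any library. rdhB, a retinol dehydrogenase of pigment cells, had 1.36 ± 0.16, and ninaG, an oxidoreductase in chromophore synthesis, 0.69 ± 0.15. santa-maria, a second scavenger receptor for carotenoids, was lower at -0.50 ± 0.13. Not called were ninaA, the chaperone of Rh1, at 0.23 ± 0.15, and ninaB, the carotenoid oxygenase, at 0.06 ± 0.19.

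Of 8 genes listed for shutting off the light response, 2 were called higher and 0 lower, Arr2 (arrestin, 0.57 ± 0.16 SE) and stops (0.41 ± 0.11). The shares over all genes were again 5.33% higher and 5.78% lower, for this list and the next ones. One of the 8, retinin, is a corneal lens protein and was at -0.40 ± 0.14, not called. Of 6 rhabdomere genes 2 were called higher, prom (prominin, 1.21 ± 0.12) and chp (1.04 ± 0.14); Zasp52 in this list is a muscle protein and was not called. Of 6 genes of the transmitter histamine and its recycling 2 were called higher, Hdc (histidine decarboxylase, 0.58 ± 0.11) and CarT (a carcinine transporter, 0.99 ± 0.16), and 0 lower.

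Of 17 genes of photoreceptor fate and opsin choice, 2 were called higher and 1 lower, beside 5.33% and 5.78% of all genes, with a median of -0.05. They were so, an eye transcription factor, at 1.10 ± 0.08 (SE), Pph13, a homeodomain factor needed for photoreceptor genes, at 0.69 ± 0.13, and salr, a spalt factor of inner photoreceptors, at -0.45 ± 0.11. The genes that set the choice between Rh5 and Rh6 were singled out after their values were seen. wts, the kinase that favours Rh6, was at 0.00 ± 0.07, and melt, which favours Rh5, at -0.16 ± 0.13, neither called. ss, the factor that sets Rh4 in R7, was at 0.31 ± 0.17, and sens, a factor of R8, at -0.94 ± 0.28 (adjusted p 0.0617), neither called. sens was at no more than 3.58 CPM in any library.

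Among the other cells of the eye, 1 of 6 genes of lens, cone and pigment cells was called higher and 2 lower. Over all genes these shares were 5.33% and 5.78%. Crys, a major corneal lens protein, was lower at -1.37 ± 0.16 (SE), and st, a pigment transporter, at -0.79 ± 0.15. Cpr72Ec, a cuticle protein of the lens, was higher at 1.04 ± 0.20. The white gene itself, w, was at 3.56 to 5.94 CPM in the 12 libraries and -0.05 ± 0.14, not called.

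Markers of other head tissue were measured beside the opsins, and their part in the opsin results was not tested. Each call below is 1 gene of a short list, beside 5.33% of all genes called higher and 5.78% lower. Of 5 neuron genes 1 was called higher (nSyb, 0.48 ± 0.13 SE), and their sum ran from 1764 to 2080 CPM in the KO-labelled libraries and from 1324 to 2109 in w1118. Of 4 glia genes 1 was called lower (alrm, -0.56 ± 0.14), and their sum ran from 324 to 424 CPM in the KO-labelled libraries and from 343 to 620 in w1118. Of 6 fat body and yolk genes 1 was called higher (Fbp1, 1.25 ± 0.35, at most 5.02 CPM), and their sum ran from 96133 to 136565 CPM in the KO-labelled libraries and from 3212 to 283732 in w1118. Of 4 ovary genes 3 were measured, none above 1.43 CPM, with osk at 0 in at least 1 library, and 1 was called higher (vas, 0.77 ± 0.22).

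Over all these lists 24 genes were called, and 15 of them stayed past the threshold in all 21 alternatives. The other 9, Arr2, Fbp1, alrm, nSyb, rdgA, salr, santa-maria, stops and vas, lost the call in some, with adjusted p from 0.0501 to 0.161, and none of the 24 turned in sign. The share of all called genes that kept the call in every alternative was not computed, so these counts have no background. For the inhibitor averaged over genotypes, 0 genes of any list were called by edgeR.

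**Figure D4:**
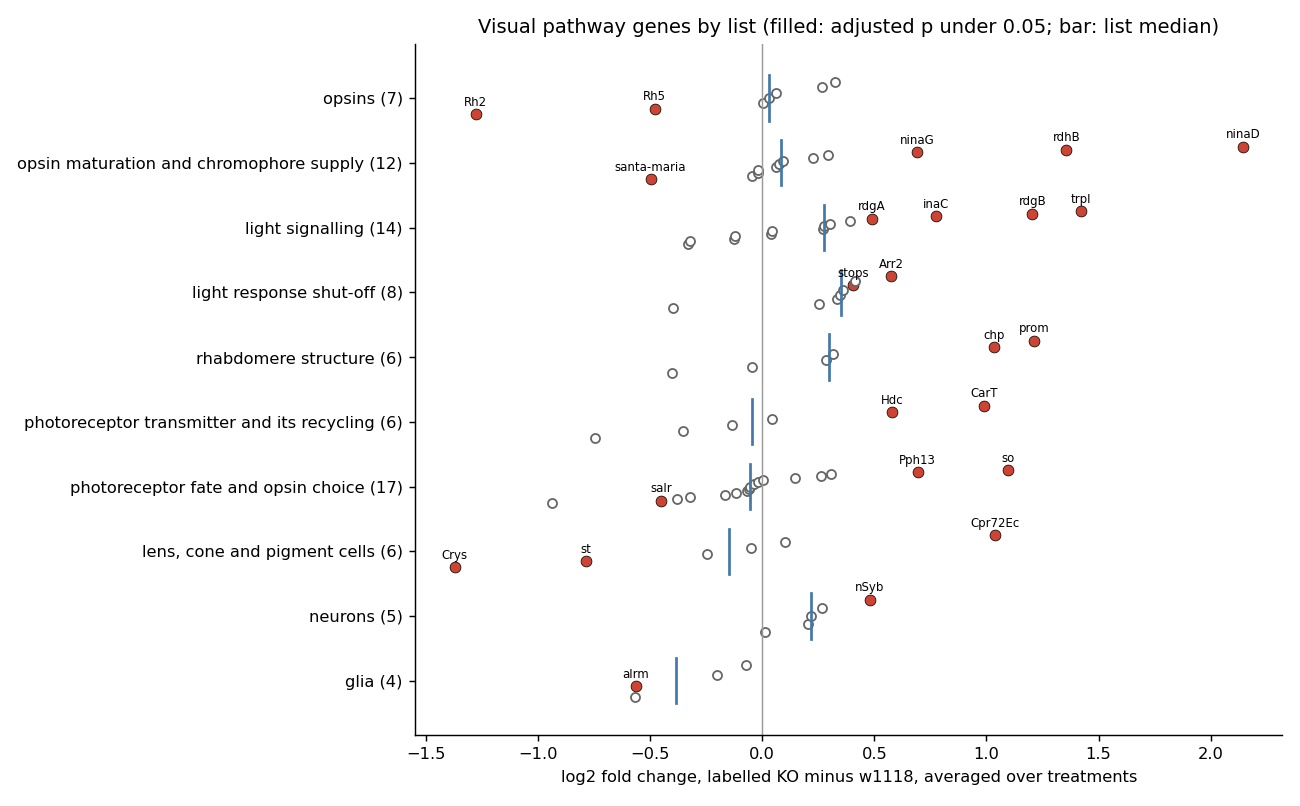
Log2 fold change of labelled KO against w1118, averaged over treatments, for every tested gene of 10 lists (points; the number tested in brackets), with the median of each list as a vertical bar; filled, named points have an adjusted p under 0.05 by edgeR. Rh2 and Rh5 are the filled opsins to the left of 0, while the 4 filled points of light signalling lie between 0.49 and 1.42.

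Likeness between genes was described as Pearson's r of log2 CPM over the 12 libraries among 10806 other genes that average at least 1 CPM, which share depth, group and the library that stood apart. The 3 most alike were inaF-B (0.92), Tsp42Ej (0.92) and CG1136 (0.91) for ninaE; ltl (0.90), HipHop (0.90) and CG32650 (0.90) for Rh2; and CG9813 (0.97), CG33298 (0.96) and CG6184 (0.96) for Rh7. For Rh3 they were Rh4 (0.93), CG40485 (0.92) and CG5346 (0.91), and for Rh4 CG40485 (0.97), Lac (0.95) and CG7365 (0.93). For Rh5 they were CG5644 (0.96), car (0.95) and CG14186 (0.94), and for Rh6 CG12236 (0.91), CG5068 (0.91) and Xport-B (0.91), a gene whose product helps TRP and Rh1 reach the membrane. With group means subtracted, the most alike was CG6424 (0.99) for Rh3, CG4927 (0.98) for Rh4, car (0.97) for Rh5 and vari (0.97) for Rh6. The pair of R8 opsins had r = 0.38 in levels and 0.80 with group means subtracted, and the pair of R7 opsins 0.93 and 0.88.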

How the data were processed

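Per the labels' protocols, total RNA of single heads was treated with DNase, spiked with control RNA and sequenced after removal of ribosomal RNA. The authors deposited estimated counts per feature, one column per library, not scaled to a common depth (60.4% of the values are not whole). Per the submitters' processing notes, Trim Galore 0.6.7, STAR 2.7.9a and Salmon 1.10.1 were used with build BDGP6, and the annotation release and the use of strand are not given in the sources used here. Each of the 12 columns carries the library name of 1 sample.

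The estimated counts were rounded. Gene rows kept by filterByExpr (minimum count 10) left 14155 genes, which were scaled by TMM and fitted with edgeR 4.0.16 (R 4.3.3) with 1 coefficient for each of the 4 groups. The quasi-likelihood test was adjusted by Benjamini-Hochberg over all 14155 genes at 0.05, and standard errors come from the test statistic. CPM use the scaled library sizes, and log2 CPM a prior count of 2. Ratios used counts plus 0.5. Positions and exon lengths come from the Ensembl annotation by gene identifier. Each library is 1 head, and nothing says whether the heads of a group came from separate cultures, so p-values measure only the spread between these samples. A level of 3 counts is 0.0554 to 0.108 CPM by the scaled library sizes, which covers counting error only. Scripts were tested on simulated counts.

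The members, the gene lists and the ratios were chosen with earlier results of these data known. All 7 opsins are named. Of each list, up to 3 genes in each direction with the smallest adjusted p are named, with exceptions stated. The 3 genes most alike to each opsin are also named. Alternatives were DESeq2 1.42.0, limma 3.58.1 (voom with sample weights), other scaling, filters, feature sets and fits of only the groups compared, the replicate number as a block, and leaving out libraries. Same-numbered libraries deviated little together on average (mean correlations of -0.10 to 0.06 between groups), and the labels state no pairing, so the numbers were not taken as pairs. Single correlations ran from -0.15 to 0.17, with 0.15 between the w1118 libraries numbered 2. The planned motif counts in promoter windows were not run.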

Additional observations from a re-analysis of the deposited data

How the results depend on the processing

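The values below are log2 fold changes or counts of calls under each alternative. DESeq2 also brings its own median-of-ratios scaling, and voom its own method together with sample weights. Unless an alternative's own construction changes the libraries or genes entering it, the cause of a difference was not tested. Without 1 library, the averaged call on Rh2 held in 3 of 12 fits and that on Rh5 in 5. In all, 21 values turned in sign, all of them of opsins or ratios that had not passed the test.

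For labelled KO against w1118 averaged over treatments (1572 genes and 2 opsins called), voom called 3975 genes and the fit without both w1118 libraries numbered 2 called 4161. Opsins called were 1 with median-of-ratios scaling (1517 genes), 1 with no count filter (1341 genes) and 4 without both those libraries (Rh3, Rh5, Rh6 and Rh7). With DMSO (581 genes, 1 opsin), DESeq2 called 1202 genes, voom 2406, the fit without both libraries 2614 and the fit of only the 2 groups 343. Opsins called with DMSO were 2 with voom and 2 without both libraries. They were 0 with median-of-ratios scaling (593 genes), no count filter (492), a minimum count of 30 (640) and the replicate block (396). They were also 0 with the yolk protein genes left out (627) and with only the 2 groups. With inhibitor (482 genes, 0 opsins), DESeq2 called 1077 genes, voom 1335 and the fit without both libraries 1824. Opsins called with inhibitor were 1 with DESeq2, 2 with voom, 1 without both libraries and 1 with only the 2 groups (513 genes).

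For the inhibitor averaged over genotypes (1 gene called), DESeq2 called 43 genes, voom 2, the replicate block 0 and the fit without both libraries 20. In the libraries labelled KO (1 gene), these were 65, 4, 0 and 10, and 10 with only the 2 groups. In w1118 (0 genes), DESeq2 called 48 and the fit without both libraries 9. For the interaction (0 genes), DESeq2 called 64, voom 2 and the fit without both libraries 1.

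Without both w1118 libraries numbered 2, the sign turned for ninaE between genotypes with DMSO (0.15), for the averaged inhibitor effect on ninaE (0.0088), Rh2 (0.044) and Rh7 (0.043), and for the genotype effect on Rh3 to Rh4 (0.0037). With voom it turned for the averaged inhibitor effect on ninaE (0.00053) and Rh2 (0.13), and with medians in place of means for the genotype effect on Rh3 to Rh4 (0.031). Of the ratios, 5 passed between genotypes with means, 0 with medians and 0 with the replicate block. With medians each of the 5 had an adjusted exact permutation p of 0.096, and 5 ratios at the smallest p could not pass. The 64 assignments within replicate numbers gave an adjusted p of 0.15 to each of the 5, so the block could not pass the threshold with these 24 tests. The labels state no pairing by replicate number, and the replicate block kept both averaged opsin calls.

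Leaving out each library in turn gave 936 to 3246 genes and 0 to 2 opsins for the averaged genotype effect, 227 to 1629 genes and 0 to 1 opsins with DMSO, and 250 to 1351 genes and 0 to 1 opsins with inhibitor. It gave 0 to 16 genes for the averaged inhibitor effect, 0 to 7 in the libraries labelled KO, 0 to 9 in w1118 and 0 to 1 for the interaction. Values that turned in sign ran from -0.035 to 0.19 for Rh3 averaged over treatments, from -0.28 to 0.15 for ninaE and -0.029 to 0.47 for Rh7 with DMSO, from -0.30 to 0.18 for Rh2 and -0.22 to 0.016 for Rh7 under the averaged inhibitor, and from -0.056 to 0.019 for Rh3 to Rh4 and -0.070 to 0.00099 for Rh4 to Rh6 between genotypes. A fit that leaves 2 libraries in a group assumes that they vary like the others. Depth limits little here, as the rarest opsin, Rh7, stood well above the floor of 3 counts, while the 3 libraries a group limit the precision.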
